A study of Mus musculus with 130 samples.

Results

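The cytosolic ribosomal protein genes encode the protein components of the ribosome, and their RNA was followed over 10 RNA-seq libraries from embryonic stem cells of the mouse. Members were taken by symbol: protein-coding genes named Rpl or Rps with a number, plus Rpsa, Rplp0, Rplp1 and Rplp2, without pseudogenes, Rpl10l and the Rps6k kinases. The rule found 87 of 52550 genes, 53 named for the large subunit and 34 for the small subunit. Of these, 77 encode ribosomal proteins proper, 9 are paralogs or retrotransposed copies (Rpl3l, Rpl7l1, Rpl22l1, Rpl32l, Rpl36al, Rpl37rt, Rpl39l, Rps27l and Rps27rt), and Rps19bp1 encodes a protein that binds the ribosomal protein S19 and is caught by its symbol alone.

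The study asked how G9a and the DNA methyltransferases keep repressive marks in place. Each of the 10 groups had 1 library, prepared with Smart-seq2, a PCR method for full-length cDNA. All cells grew on gelatin, in serum with LIF, the factor that keeps them undifferentiated. In strain C57BL/6xCBA there were wild-type TT2 cells (WT TT2), clone G7, which is G9a-/- and carries a G9a transgene with the changes Y1120V and Y1207F (G9a CM), and clone 248-6, labelled G9a-/- and GLP-/- (G9a/GLP DKO). In strain 129S4/SvJae there were wild-type J1 cells (WT J1), cells without Dnmt3a and Dnmt3b (Dnmt3a/3b DKO), and cells that lack Dnmt1 as well (Dnmt1/3a/3b TKO). A separate set of wild-type TT2 cells received UNC0638, an inhibitor of G9a and GLP, and was collected on day 2, 4 or 14, with a DMSO control (inhibitor control). Sample titles put the dose at 250 nM, but the treatment protocol at 250 µM. The sources used here do not tell whether dosing went on to day 14. Each mutant is a single line or clone, so a difference between 2 libraries cannot be told apart from a difference between clones.

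A ribosome holds 1 copy of nearly every ribosomal protein, so their genes are usually read at similar and very high rates, and most are never switched off in a living cell. Their messenger RNAs begin with a run of pyrimidines, the terminal oligopyrimidine tract, through which mTOR and LARP1 set how strongly they are translated. Embryonic stem cells divide fast and make many ribosomes. Mammals also keep some paralogs read in particular tissues, such as Rpl39l in the testis and Rpl3l in muscle.

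The tract can be seen at annotated transcription starts. RefSeq (GRCm38.p6) start sites were matched for 67 of the 87 members, with 79 starts in all. A C exactly at the start, followed on the sense strand by at least 4 pyrimidines, stood at 15 member starts, or 19.0%, against 2.51% of all 32851 starts. The window from 5 bases before to 10 bases after the start held such a run at 49.4% of member starts and 24.3% of all starts. Stretches from 20 bases before the start to 10 bases from the start on are given 5′ to 3′, with the tract in capitals. They are from members described later that were picked for having the tract at the start. Others described later, such as Rplp0, Rpl5 and Rpl11, had none there.
Rps6, chr4:86857358-86857387, minus strand: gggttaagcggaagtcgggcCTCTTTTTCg
Rplp2, chr7:141447631-141447660, plus strand: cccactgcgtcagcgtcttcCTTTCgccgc
Rpl38, chr11:114668560-114668589, plus strand: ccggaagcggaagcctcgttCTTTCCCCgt
Rps18, chr17:33955656-33955685, minus strand: acttatacgtcacttccgctCTCTCTTCCa
Rps15a, chr7:118116138-118116167, minus strand: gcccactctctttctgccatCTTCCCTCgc
Rps27, chr3:90213639-90213668, minus strand: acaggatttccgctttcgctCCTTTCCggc
Rps27rt, chr9:114982730-114982759, minus strand: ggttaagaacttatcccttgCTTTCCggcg
The tract of Rps27 and that of its retrotransposed copy Rps27rt were 7 and 6 bases long. Both starts carry a tract although the genes lie on different chromosomes. The 250 bases upstream of a start held a median of 17 CG dinucleotides over member starts and 6 over all starts.

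Total expected counts ran from 11436808 in G9a/GLP DKO to 25609600 in WT TT2. Intervals are exact 95% intervals of counts. They cover counting error only, because PCR copies of 1 molecule could not be recognised. The embryonic stem cell marker Nanog stood at 101 to 250 TPM and Zfp42 at 618 to 1761 TPM. Pou5f1 stood at 7.61 to 33.1 TPM in the 6 genetic lines and at 435 to 557 TPM in the inhibitor series. The trophoblast gene Cdx2 stood at 0 to 0.09 TPM, and 7 fibroblast markers summed to 2.16 to 5.92 TPM. Trophoblast markers, mostly Tfap2c, summed to 38.1 to 68.9 TPM in the inhibitor series and 2.97 to 17.7 TPM elsewhere. In bulk RNA, fewer cells of a type and less RNA per cell cannot be told apart. The gap between gene length and effective length, the mean fragment length, had a median over members of 150 bases in WT TT2, 184 to 198 bases in the other 5 genetic lines and 251 to 274 bases in the inhibitor series.

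Ribosomal protein genes were among the most abundant RNAs in every library. TPM, a measure of transcripts scaled to a fixed total, corrects for gene length and was used for levels. Of the 77 proper genes, 76 stood at 100 TPM or more in all 10 libraries. Rpl29 was the exception. Members with a high median TPM included Rpl32 (5659 TPM), Rpl41 (5538), Rps27l (5209) and Rps14 (5165). Rpl41 encodes the shortest protein of the ribosome, and Rps27l is a p53 target. The lowest were Rpl32l (1.72 TPM), Rpl3l (2.58), Rps27rt (81.3), Rpl39l (94.8) and Rps19bp1 (158), none of them a ribosomal protein proper. Rpl32l had 1 to 12 counts in each library and was the single member that stayed under 1 CPM (counts scaled to library size) in every library.

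The genes were far from equimolar as RNA, although their proteins are. Within a library, the 90th percentile of the proper genes was 6.21 times the 10th in WT TT2, 13.9 times in WT J1 and 12.1 to 13.5 times in the inhibitor series. Across all 10 libraries, a proper gene's highest TPM was 1.17 to 144 times its lowest, with a median of 2.74. The steadiest was Rpl7, at 2520, 2337 and 2551 TPM in WT TT2, G9a CM and G9a/GLP DKO. It stood at 2418, 2636 and 2253 TPM in WT J1 and its double and triple Dnmt mutants, and within the same range in the inhibitor series. The range was under 2-fold for all 77 genes within the 4 libraries of the inhibitor series, and for 49 of 77 within the 6 genetic lines.

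The share of each library taken by the 87 genes was highest in WT J1 and lowest in the inhibitor series, and the mutants of the TT2 and J1 sets overlapped. It was 6.97% of expected counts (interval 6.96% to 6.98%) in the TT2 wild type, 6.96% in G9a CM and 7.85% in G9a/GLP DKO. In the J1 set it was 9.80% (interval 9.79% to 9.82%) in the wild type, 7.86% without Dnmt3a and Dnmt3b and 7.61% without all 3 enzymes. The inhibitor series lay lowest, at 3.94% in the control and 3.45%, 3.79% and 3.50% on days 2, 4 and 14. By TPM the shares were 13.9%, 15.0% and 17.1% in the TT2 set, 19.2%, 17.3% and 16.05% in the J1 set, and 10.5%, 9.73%, 10.3% and 9.67% in the inhibitor series. Both measures put WT J1 highest and the inhibitor series lowest, but WT TT2 and G9a CM changed places between them, as did days 2 and 14. Large over small subunit TPM was 1.06, 1.16 and 1.19 in WT TT2, G9a CM and G9a/GLP DKO. It was 0.933 in WT J1, 1.02 and 1.08 in the Dnmt mutants, and 1.40 to 1.43 in the inhibitor series.

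**Figure D1:**
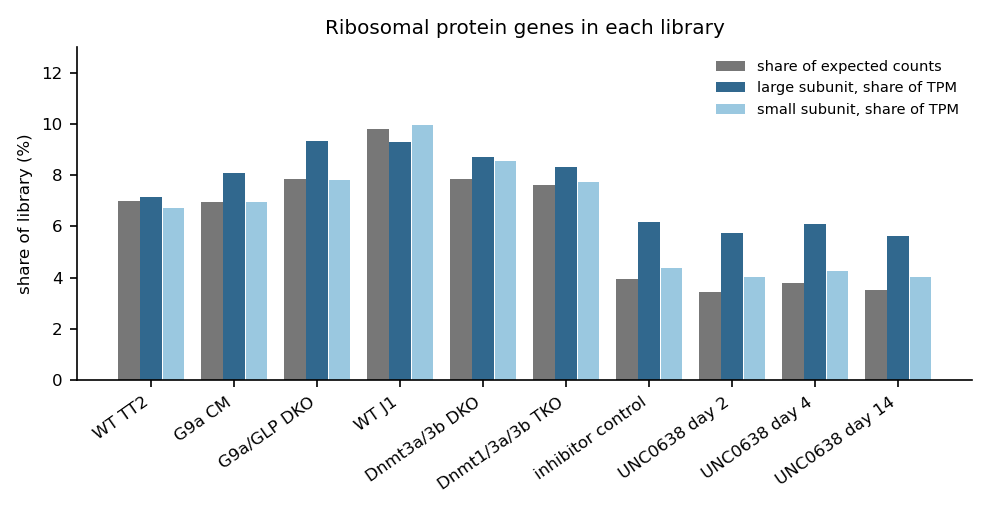
Share of each of the 10 libraries (x axis) in ribosomal protein genes, in percent (y axis): grey bars give expected counts, dark and light blue bars give TPM of the large and small subunit, and each bar is 1 library. WT J1 is the library with more small than large subunit TPM (9.96% against 9.29%), and the 4 inhibitor libraries are lowest.

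Differences between libraries were taken on log2(CPM + 1), with CPM after TMM scaling. To be called higher or lower, a gene needed a difference of 1.5-fold, a CPM of at least 1 in either library and a counting interval that excluded 1. No group had a replicate, so there is no test, and the share of all measured genes that met the same rule is printed as the background. This background was computed under TMM scaling only. Counts by TPM used the 1.5-fold size alone, without a counting interval. In each of the 11 comparisons 86 members were measured. Scaling by total counts, DESeq2 size factors or deposited TPM moved the median of all genes by -0.21 to 0.30, so the members' median is set against that of all genes.

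In the lines without active G9a, ribosomal protein genes as a group stood close to WT TT2. In G9a/GLP DKO the median member differed by -0.05 on the log2 scale, against -0.01 for all genes, and 1 of 86 members was higher (background 19.4%) and 6 were lower (background 20.1%). By DESeq2 size factors, total counts and TPM this median turned positive, at 0.03, 0.17 and 0.31, against 0.06, 0.19 and 0.17 for all genes. Members minus all genes came to -0.03, -0.02 and 0.14, so they lay above all genes by TPM only. In G9a CM the median was -0.14, against -0.08 for all genes, with 3 members higher (background 13.5%) and 9 lower (background 18.4%). By TPM the G9a CM median was 0.11, against 0.07 for all genes. Between the mutants, G9a/GLP DKO minus G9a CM gave 0.05, against 0.03, with 2 members higher (background 18.1%) and 2 lower (background 12.3%). The share of members called was below the background in all 3 comparisons under TMM scaling, which was not tested, and no background by TPM was computed.

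Single members departed from the group in these lines. Rpl31, a protein near the exit of the peptide tunnel, stood at 357 CPM in WT TT2, at 165 CPM in the G9a CM line and at 138 CPM in G9a/GLP DKO, where its log2 difference against the median member was -1.31. Rpl5, which carries 5S rRNA and, with Rpl11, holds back the p53 ligase Mdm2, stood at 406, 236 and 186 CPM. Rpl11 stood at 335, 245 and 248 CPM and did not reach the rule in either mutant, and by TPM its level in G9a/GLP DKO was above WT TT2 (603 against 578). Rps6, the substrate of S6 kinase whose start is shown above, stood at 407, 288 and 236 CPM and was lower in G9a/GLP DKO (ratio 0.580, interval 0.557 to 0.605). Within the TT2 set, these 4 genes had their highest CPM in the wild type. Rpl23a, Rpl36a and Rps29 completed the 6 lower members in G9a/GLP DKO. By TPM, 2 members were at least 1.5-fold lower in that comparison and 15 higher, with no background computed.

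Above the group stood Rpl26 and, in G9a CM, Rps2. Rpl26, which also binds p53 mRNA, stood at 707 CPM in the wild type, 1067 in G9a CM and 1035 in G9a/GLP DKO, which was called in G9a CM only and lay just short of 1.5-fold in G9a/GLP DKO (1.46). Rps2, a small subunit protein near the mRNA entry, stood at 491, 848 and 467 CPM in the same order, so G9a CM was the library apart (1.73 times WT TT2, interval 1.69 to 1.77). Its named copy Rps2-ps10 had 1002 expected counts in WT TT2, 721 in G9a/GLP DKO and 10 in G9a CM. Gene and copy together stood at 532, 848 and 524 CPM in WT TT2, G9a CM and G9a/GLP DKO, so the sum was still highest in G9a CM. Rps18 was likewise lower in G9a/GLP DKO than in G9a CM, at 665 against 1174 CPM, and Rpl13 was higher, at 799 against 524 CPM.

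In the Dnmt mutants most ribosomal protein genes stood lower than in WT J1 by CPM. The median member differed by -0.49 in Dnmt3a/3b DKO, against 0.03 for all genes, and 74 of 86 members lay below 0 and 12 above. By TPM this median was -0.078, against 0.30. Of the 86, 37 were called lower (background 21.7%) and 2 higher (background 22.1%). In Dnmt1/3a/3b TKO the median was -0.55, against -0.01, with 42 members lower (background 22.9%) and 4 higher (background 22.9%). Both comparisons share the WT J1 library. Under TMM, total count, DESeq2 and TPM scaling alike the members' median lay below that of all genes. Members minus all genes came to -0.51 by TMM and -0.37 by TPM for Dnmt3a/3b DKO, and to -0.54 and -0.43 for Dnmt1/3a/3b TKO. The counts moved more, and no background was computed for the alternatives. By TPM 7 members were higher and 7 lower by 1.5-fold in Dnmt3a/3b DKO, and 7 higher and 16 lower in Dnmt1/3a/3b TKO. With total count scaling they were 3 and 19, and 6 and 27. Between the mutants themselves the median was -0.05, against -0.03 for all genes, with 1 member higher (background 8.33%) and 0 lower (background 7.93%).

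**Figure D2:**
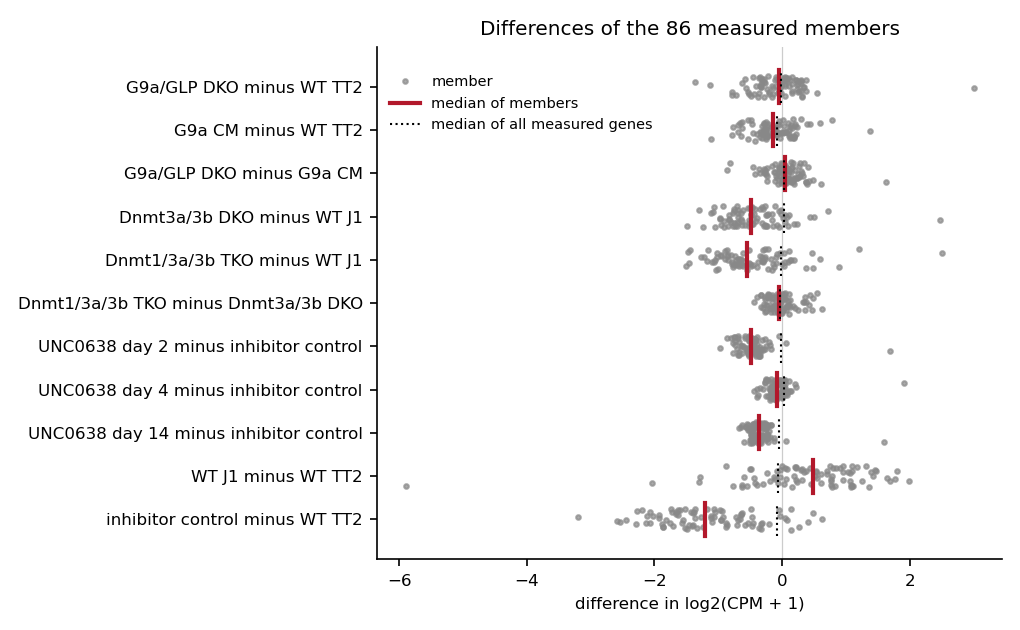
Difference in log2(CPM + 1) (x axis) of the 86 measured members in each of the 11 comparisons (rows): a grey point is 1 member, the red bar their median and the dotted bar the median of all measured genes. The red bars sit left of the dotted bars for both Dnmt mutants against WT J1 and for days 2 and 14, and far left for the inhibitor control against WT TT2.

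Among the members farthest below the median member were small-subunit genes. Rps27, a zinc-finger protein of the small subunit, stood at 9719 TPM in WT J1 but at 4830 and 4508 TPM in the double and triple mutant, against 3588, 3856 and 4357 TPM in WT TT2, G9a CM and G9a/GLP DKO. Its retrotransposed copy Rps27rt, whose 5′ tract is shown above, stood at 233, 127 and 107 TPM in the J1 set and 68.9 to 122 TPM in the TT2 set. Rps20 stood at 2647, 1671 and 1305 TPM and 943 to 1329 TPM in the same sets. For these 3 genes WT J1 was the library apart, above the other 5 genetic lines. In CPM, Rps27 was lower in the double mutant (ratio 0.357, interval 0.350 to 0.365) and the triple mutant (ratio 0.353, interval 0.346 to 0.360), and Rps20 likewise (0.423 and 0.364). Rps15a, with its tract shown above, stood at 7306, 4406 and 3954 TPM. Rpl39 of the large subunit also ranged widely over the J1 set, from 405 to 1109 CPM.

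Members of both subunits were called lower, and members with known roles of their own differed in how far they went. The median was -0.46 for large and -0.61 for small subunit members in Dnmt3a/3b DKO, and -0.36 and -0.69 in Dnmt1/3a/3b TKO. Rplp1, an acidic protein of the stalk that recruits elongation factors, stood at 6585, 5301 and 4044 TPM in the J1 set, and its partner Rplp2 at 2149, 2589 and 2038 TPM (by CPM 851, 717 and 603). Rpl11 was lower in both mutants by CPM (ratios 0.615 and 0.603), while Rpl5 (0.750 and 0.817) and Rps6 (0.809 and 0.884) did not reach the rule. By TPM the latter 2 stood higher in the mutants, Rpl5 at 162 and 172 against 142 and Rps6 at 414 and 427 against 381. Rps27a, made as a fusion with ubiquitin, was lower in Dnmt3a/3b DKO (0.648) and not called in Dnmt1/3a/3b TKO (0.835). Rpsa, also known as the laminin receptor precursor, was called in neither (1.04 and 0.762). Rps19, the gene most often mutated in Diamond-Blackfan anaemia, was lower in Dnmt1/3a/3b TKO (0.609) and not called in Dnmt3a/3b DKO (0.695). Rpl7a stood above the group in both, at 424 and 423 CPM against 300 in WT J1, and was not called. Rpl27 was the single member called between the mutants, at 416 CPM in Dnmt1/3a/3b TKO and 269 in Dnmt3a/3b DKO.

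Members of all 3 length classes had medians below 0, and below those of all genes of the same length. In Dnmt1/3a/3b TKO against WT J1 the median was -0.79 for the 32 members under 600 bases, -0.42 for 36 from 600 to 900 bases and -0.30 for 18 of 900 bases or more. All genes of those lengths had medians of -0.36, -0.16 and 0.03. In Dnmt3a/3b DKO the members' medians were -0.72, -0.48 and -0.24, and those of all genes -0.52, -0.35 and 0.09. Mean fragment length was 10.9 bases above WT J1 in Dnmt3a/3b DKO and 4.66 bases above it in Dnmt1/3a/3b TKO. The part of length in the result was not tested.

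With UNC0638 the group stood lower on days 2 and 14 and near the control on day 4. On day 2 the median member differed by -0.48, against -0.01 for all genes, 84 of 86 members lay below 0, and 22 were lower (background 8.55%) and 1 higher (background 11.6%). On day 4 the median was -0.08, against 0.03, with 0 lower (background 3.55%) and 1 higher (background 5.34%). On day 14 it was -0.37, against -0.06, with 84 of 86 below 0, 4 lower (background 4.24%) and 1 higher (background 6.28%). The 3 comparisons share the control library. By TPM the medians were -0.14, -0.06 and -0.15, against 0.22, 0.01 and 0.09 for all genes, so the group kept its side while its size shrank. The day 2 count of lower members was 1 by TPM, 2 with total count scaling and 35 with DESeq2 size factors, so it rests on the scaling. The day 14 count was 0 by TPM and by total counts.

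The members moved in step in this series. On day 2, 8 in 10 members lay between -0.72 and -0.29. Farthest below was Rps12, at 54.4 CPM in the control and 27.3, 41.4 and 38.8 CPM on days 2, 4 and 14, followed by Rps13 (130, 70.6, 108 and 82.5 CPM). Rpl31 stood at 97.5 CPM in the control and 55.4 CPM on day 2, and Rps6 at 196 and 122 CPM. On day 14 the lower members were Rpl38, Rps13, Rpl37a and Rps29. Rpl38, whose tract is shown above and which is known for its effect on Hox mRNA translation, stood at 197 CPM in the control and 124 CPM on day 14. Rplp0, the stalk base, was among the least affected, at 4485 CPM in the control and 4099 CPM on day 14, a ratio of 0.914 (interval 0.904 to 0.924), while by TPM it stood at 5195 and 5383. Members under 600 bases had a median of -0.51 on day 2 and those of 900 bases or more -0.36, against -0.34 and 0.01 for all genes of those lengths. Mean fragment length was 15.5, 22.5 and 23.2 bases above the control on days 2, 4 and 14, and its part in the result was not tested.

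Against its own control, 1 member was higher in every mutant and treated library. Rpl39l, the testis paralog of X-linked Rpl39, lies at chr16:10170197-10174911 on GRCm38. In the TT2 set it stood at 74.2 TPM in the wild type, 230 in G9a CM and 821 in G9a/GLP DKO. In the J1 set it stood at 102 TPM in the wild type and at 866 and 829 TPM in the double and triple mutant. In the inhibitor series it stood at 17.6 TPM in the control and 86.6, 87.3 and 72.4 TPM on days 2, 4 and 14. Each of the 7 mutant or treated libraries was above the control of its own set, and no other member was called higher in all 7. The share of all genes called higher in all 7 was not computed. By CPM it was 8.17 times WT TT2 in G9a/GLP DKO (interval 7.64 to 8.74) and 2.64 times in G9a CM (interval 2.45 to 2.84). It was 5.62 times WT J1 in the double mutant (interval 5.27 to 5.98) and 5.75 times in the triple mutant (interval 5.40 to 6.12). With UNC0638 it was 3.56, 4.196 and 3.32 times the control on days 2, 4 and 14 (intervals 2.83 to 4.52, 3.34 to 5.33 and 2.63 to 4.24), from 89 counts in the control. The Dnmt mutants did not differ from each other by the rule, at 1.02 (interval 0.991 to 1.06).

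Rpl39 itself did not follow its paralog. It stood at 648, 716 and 838 TPM in the TT2 set, 1959, 1260 and 933 TPM in the J1 set, and 250, 221, 209 and 199 TPM in the inhibitor series. Rpl39l therefore made up 10.3%, 24.3% and 49.5% of the TPM of the pair in WT TT2, G9a CM and G9a/GLP DKO. Its share was 4.96%, 40.7% and 47.0% in the J1 set, and 6.58%, 28.2%, 29.4% and 26.7% in the inhibitor series. The 150 bases upstream of each RefSeq start are shown because CG dinucleotides, in capitals, are the sites of DNA methylation.
Rpl39l, chr16:10170078-10170227, plus strand: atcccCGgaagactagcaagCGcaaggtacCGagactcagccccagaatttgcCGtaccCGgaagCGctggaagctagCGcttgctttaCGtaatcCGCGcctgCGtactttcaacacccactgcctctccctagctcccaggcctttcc
Rpl39, chrX:37085223-37085372, minus strand: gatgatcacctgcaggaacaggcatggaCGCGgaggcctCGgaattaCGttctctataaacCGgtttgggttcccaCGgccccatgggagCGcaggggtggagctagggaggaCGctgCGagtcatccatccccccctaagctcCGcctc
They hold 11 and 10 CG. The end of the Rpl39l stretch lies within the gene coordinates given above, since the start used is downstream of the gene's first base. Over 250 bases both genes had 12, a count that 33.5% of all starts reach. Methylation at these sites was not analysed here.

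**Figure D3:**
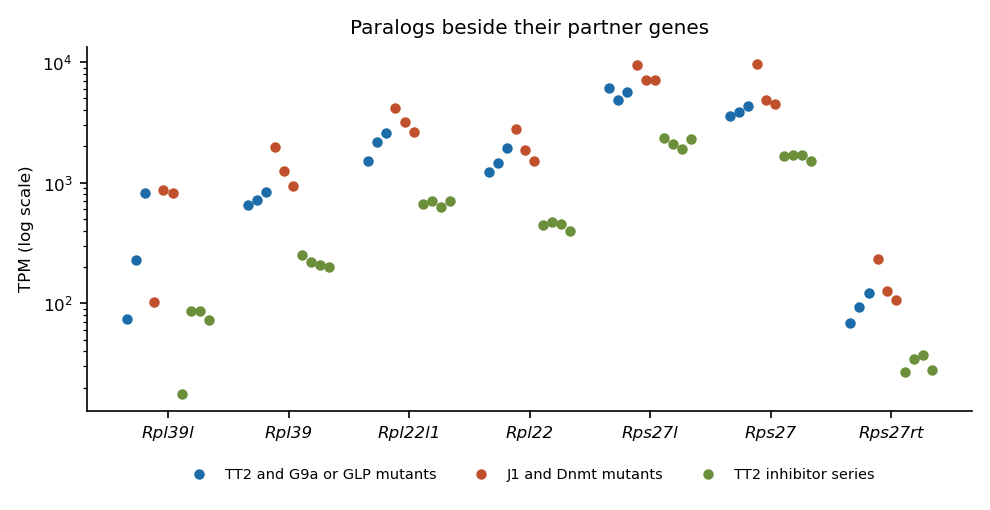
TPM on a log scale (y axis) of paralogs and their partner genes (x axis) in the 10 libraries, 1 point each, in the order TT2 set, J1 set and inhibitor series. Rpl39l spans 17.6 to 866 TPM with each mutant or treated library above its control, while Rpl22l1 and Rps27l run alongside Rpl22 and Rps27.

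Among the other paralogs, the share of the pair moved little for some and widely for others. Rpl22l1, which Rpl22 is known to repress, was 55.5% to 64.0% of the TPM of the pair in every library. Rps27l was 49.2% to 63.0% of its pair with Rps27, and Rps27rt 1.59% to 2.71% of its pair. Rpl7l1, which acts in ribosome assembly, was 4.18% to 8.85% beside Rpl7. Rpl36al was 47.1% of its pair with X-linked Rpl36a in WT J1, 57.9% in WT TT2 and 69.1% to 78.0% in the other 8 libraries. Rpl3l, the muscle paralog of Rpl3, stayed at 1.24% or less. It rested on 17 counts in WT J1 and on 42 and 72 in the Dnmt mutants, where it was called higher. Rps4l, which RefSeq lists as a pseudogene, had 4764 counts in WT J1 and 22430 on day 4, or 9.38% to 64.1% of its pair with X-linked Rps4x. Reads of near-identical copies can be split wrongly, so single paralogs are uncertain.

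The 4 X-linked members ran alike in the J1 set and less so in the TT2 set. Rps4x stood at 1734, 2188 and 2301 TPM in the TT2 set and 3025, 2678 and 2178 TPM in the J1 set. Rpl10, near the peptidyl transferase centre, stood at 988, 1262 and 1371 TPM and at 1797, 1433 and 1297 TPM. Rpl36a stood at 785, 617 and 629 TPM and at 1241, 756 and 663 TPM. All 4, Rpl39 included, were highest in WT J1 and lower in the triple than in the double mutant, while in the TT2 set Rpl36a alone was highest in the wild type.

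The 2 wild types differed widely. WT J1 against WT TT2 gave a median of 0.48, against -0.06 for all genes, with 39 of 86 members higher (background 22.1%) and 9 lower (background 26.3%). By TPM the median was 0.25, against -0.28. By size alone 32 members were then higher and 16 lower, with no background computed. The small subunit median was 0.77 and the large 0.31. Members under 600 bases had a median of 0.79 and those of 900 bases or more 0.02, while all genes of these lengths had 0.39 and -0.09. Rps20 (3.96 times, interval 3.90 to 4.03), Rps27rt (3.55 times) and Rpl39 (3.49 times) were farthest above the median member. The lines differ in strain, and strain and line cannot be told apart.

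A few members separated the J1 set from the TT2 set altogether. The rule, chosen after the data were seen, asked that all 3 J1 set libraries lie at least 1.5-fold beyond all 3 TT2 set libraries in CPM. Among 85 members at a mean of 10 CPM or more, 5 were lower in the J1 set (5.88%, background 1.99%) and 1 was higher (1.18%, background 1.15%). Rpl29, a large subunit protein that mice can live without, lies at chr9:106428889-106431568. It stood at 529, 800 and 929 TPM in the TT2 set, 6.47, 13.8 and 17.1 TPM in the J1 set, and 769 to 921 TPM in the inhibitor series. WT J1 had 62 counts of it and WT TT2 7362, which makes it 74.1-fold lower (interval 57.7 to 96.7). The highest J1 set library was still 35.7-fold below the lowest TT2 set library. Rpl29 was not summed with any copies, and whether its reads were counted to copies in the J1 set was not tested.

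Rps3a1 and Rplp0 showed the same split. Rps3a1, a small subunit protein (chr3:86137940-86142668), stood at 816, 1034 and 1184 TPM in the TT2 set, 165, 130 and 135 TPM in the J1 set, and 673 to 770 TPM in the inhibitor series. Its copy Rps3a3 ran in the other direction, with 8784, 6560 and 5288 expected counts in the TT2 set and 22446, 16728 and 16169 in the J1 set. Rps3a1 with its copies Rps3a2 and Rps3a3 summed to 1129, 1242 and 1353 CPM in the TT2 set and 1967, 1296 and 1167 CPM in the J1 set, and the sets overlapped. Rplp0 (chr5:115559467-115563729) stood at 2686, 3412 and 4317 TPM, then 846, 1254 and 941 TPM, and adding its copy Rplp0-ps1 left WT TT2 at 3214 and WT J1 at 1324 CPM. Its stalk partners Rplp1 and Rplp2 were not lower in WT J1.

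Rpl34, Rpl30 and Rpl21 completed the list. Rpl34 stood at 2408, 2535 and 2845 TPM in the TT2 set and 893, 706 and 640 TPM in the J1 set. Its copy Rpl34-ps1 had 163, 94 and 85 counts, then 2767, 1809 and 1593. The sum of both genes still kept the TT2 and J1 sets apart, at 762 to 891 CPM and 303 to 545 CPM. Rpl30 stood at 1015 to 1320 TPM and 444 to 461 TPM, and Rpl21, the higher one, at 757 to 914 TPM and 2006 to 2108 TPM. Against all 7 TT2 strain libraries, 3 members remained lower, since Rpl34 and Rpl30 did not meet the rule with the inhibitor series included. Rpl34 with its copy stood at 268 CPM in the inhibitor control. On days 2, 4 and 14 the sum was 157, 238 and 192 CPM, so the whole series lay below the J1 set.

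Some pseudogenes of the family differed between the sets too. Rps13-ps1 had 9487, 8032 and 7459 counts in the J1 set, 5, 6 and 0 in the TT2 set and 0 to 1 in the inhibitor series. Rps13 itself stood at 985, 1001 and 916 TPM in the TT2 set and 977, 754 and 737 TPM in the J1 set. Rps13 with its copies Rps13-ps1 and Rps13-ps2 summed to 466, 394 and 335 CPM and to 1157, 781 and 712 CPM, so the sum kept the sets apart while the TPM of the gene alone overlapped. All 285 named pseudogenes together held 0.166% to 0.236% of counts in the TT2 set and 0.307% to 0.396% in the J1 set. How reads that match a gene and its copies were treated before counting could not be taken from the sources used here. A gene and its copies cannot be told apart where they trade counts.

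**Figure D4:**
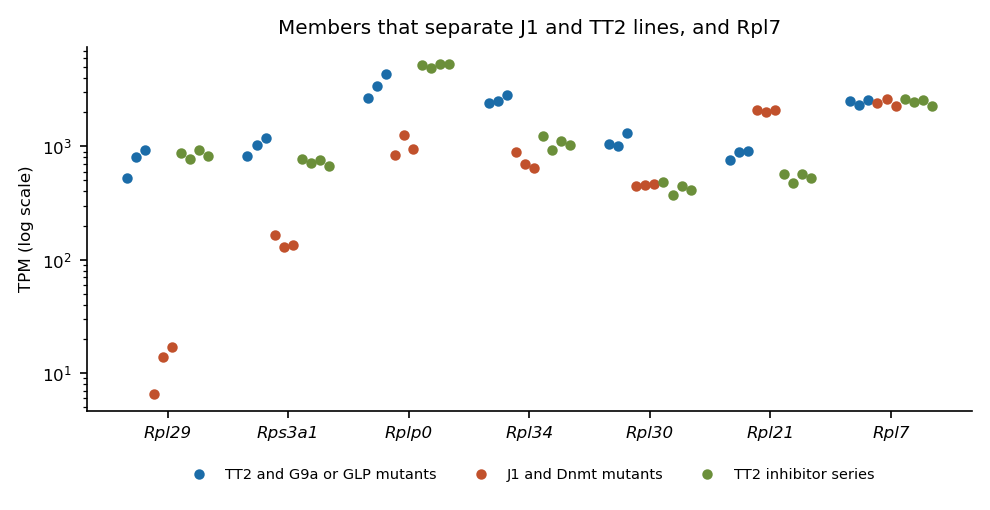
TPM on a log scale (y axis) of the 6 members that separated the J1 and TT2 sets, with the steady Rpl7 for comparison (x axis), 1 point per library and coloured by set. Rpl29 sits at 6.47 to 17.1 TPM in the J1 set and at 529 to 929 TPM in the other libraries, and Rpl7 does not separate.

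The controls of the 2 TT2 experiments differed more than any mutant from its own control. The inhibitor control against WT TT2, both wild-type TT2 cells, gave a median of -1.21, against -0.07 for all genes, with 65 of 86 members lower (background 35.6%) and 1 higher (background 33.8%). By TPM the median was -0.48, against 0.23, and 41 members were lower by size alone, with no background computed. Rps29 stood at 1680 TPM in WT TT2 and 372 TPM in the inhibitor control, while Rpl8, the member called higher, stood at 849 and 1943 TPM. The median was -1.60 for members under 600 bases, -1.05 from 600 to 900 bases and -0.46 at 900 bases or more, and -1.42, -1.14 and 0.12 for all genes of those lengths. Mean fragment length differed by 101 bases, and its part in the result was not tested. The experiment and these values cannot be told apart, so each mutant or treated library was set against the control of its own set.

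**Figure D5:**
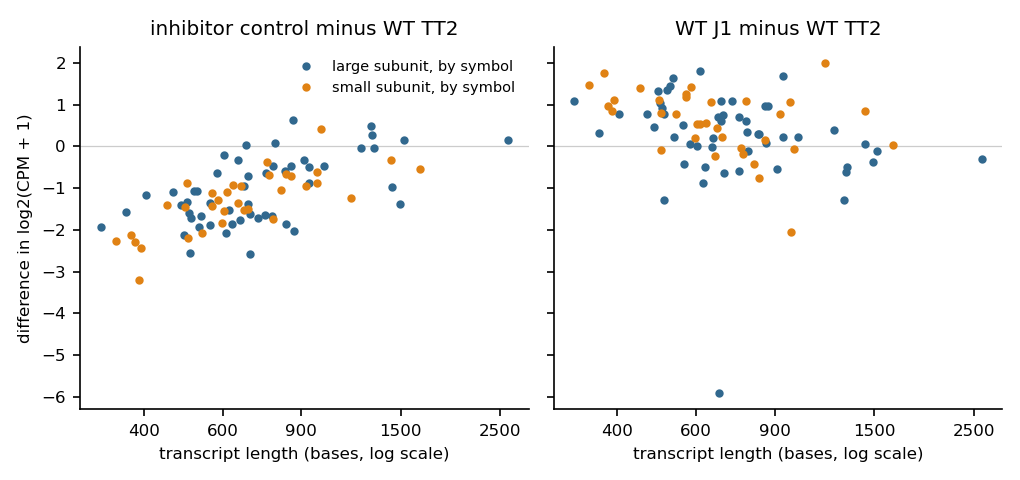
Difference in log2(CPM + 1) (y axis) of each measured member against transcript length in bases on a log scale (x axis), for the inhibitor control and WT J1, each minus WT TT2, with subunits by symbol in blue and orange. Members under 600 bases have the lowest median of the 3 length classes in the left panel (-1.60) and the highest in the right panel (0.79), where Rpl29 lies far below the rest.

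Other genes of ribosome production did not always move with the members. These lists were chosen with earlier results of these data known. Against WT J1, 19 of 44 ribosome assembly and rRNA processing factors were higher and 0 lower in each Dnmt mutant. The background was 22.1% and 22.9% higher, and 21.7% and 22.9% lower. The medians of these factors were 0.48 and 0.50, while the ribosomal proteins stood lower. Among them Rrp9, a U3 snoRNP protein, stood at 9.78 CPM in WT J1 and 53.8 and 50.0 CPM in the mutants, and Bop1, a large subunit assembly factor, at 10.1, 39.8 and 44.9 CPM. Of 15 RNA polymerase I genes, 5 and 6 were higher and 1 was lower in each. Of 22 translation factors and partners known for the same 5′ tract, 5 and 3 were higher, which is near or below the background, and 1 was lower. That 1 was Tpt1, a translationally controlled protein, at 708 CPM in WT J1 and 228 and 259 CPM in the mutants. Of 13 regulators of ribosomal protein synthesis, 4 and 6 were higher and 1 lower (medians 0.50 and 0.54), among them Mycn, at 24.9, 164 and 84.9 CPM.

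On day 2 of UNC0638 the median of every list given here lay below 0 with that of the members, that of the regulators only just. Of all genes, 8.55% were called lower. Of the tract-bearing translation factors 8 of 22 were lower and 0 higher (median -0.51), of the assembly factors 14 of 44 and 0 (median -0.44), and of the RNA polymerase I genes 4 of 15 and 0 (median -0.33). Of 78 mitochondrial ribosomal proteins 4 were lower, a smaller share than among all genes, with a median of -0.30. Fau, which encodes a ubiquitin-like protein fused to a ribosomal protein, stood at 210 CPM in the control and 135 CPM on day 2. The 13 regulators had a median of -0.02, and the 2 called, both lower, were Myc at 85.7 and 21.4 CPM and Mycn at 542 and 261 CPM. On day 4 none of these lists had a called gene in either direction by this rule, and on day 14 the tract-bearing factors, assembly factors and mitochondrial proteins had 0 called and medians of -0.31, -0.20 and -0.16.

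The medians of mitochondrial and cytosolic ribosomal proteins lay apart in G9a/GLP DKO and close together in G9a CM. In G9a/GLP DKO against WT TT2, 33 of 78 mitochondrial ribosomal protein genes were lower and 2 higher (background 20.1% and 19.4%). Their median was -0.45, beside a median of -0.05 for the cytosolic genes. All genes under 600, from 600 to 900 and of 900 bases or more had medians of -0.29, -0.32 and 0.02. Cytosolic members of those lengths had -0.088, -0.090 and 0.05. The mitochondrial genes were not split by length. Mean fragment length was 48.1 bases above WT TT2, and its part in the result was not tested. Mrps21 stood at 210 CPM in WT TT2 and 58.2 CPM in G9a/GLP DKO, and Mrps14 at 1062 and 393 CPM. In G9a CM 12 were lower (background 18.4%) and 1 higher, with a median of -0.18 beside -0.14 for the cytosolic genes. Assembly factors in G9a/GLP DKO had 14 of 44 lower and 4 higher (median -0.31). Of the 13 regulators 1 was higher in G9a/GLP DKO and 2 in G9a CM (medians -0.17 and -0.23). Myc was higher in both, at 42.6 CPM in G9a CM and 29.4 CPM in G9a/GLP DKO against 5.93 CPM in the wild type.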

How the data were processed

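RNA-seq of 10 mouse embryonic stem cell libraries, 1 per group, was analysed; the other 120 of 130 samples were not analysed here. STAR 2.5.3a, RSEM and the build GRCm38 (mm10) are named in the submitters' processing notes. The deposited expected counts are RSEM estimates per gene, per the file headers, and 11.1% to 14.2% of those above 0 are not whole. The deposited TPM values are scaled for effective length and library total, per the file headers. The deposited lengths and posterior standard deviations (other units, in bases and reads) were used for gene length and as a filter of 5%. Strand use, the handling of reads that match several places and the annotation release are not given in the sources used here.

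Gene IDs were matched to symbols without version, leaving 147 of 52550 without one. Gene types, coordinates and start sequences are from RefSeq, GRCm38.p6. Counts were rounded and scaled to CPM by TMM over all 10 libraries with edgeR 4.0.16. No count model was fitted, since no group has a replicate. Members called higher or lower met the 1.5-fold rule with a pseudocount of 1, a minimum of 1 CPM and an exact 95% conditional binomial interval. The median member's own interval is an order-statistic one. It takes members as independent and covers the spread among them within 1 pair of libraries, not the error of a difference between conditions. Alternatives used total counts, DESeq2 1.42.0 size factors, TMM without the members, TPM, other member sets and filters. The calling code was tested on simulated counts.

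The members and lists were chosen with earlier results of these data known. Named genes were the 5 highest and lowest by median TPM, the 3 farthest above and below the median member per comparison at 10 CPM or more in both libraries, paralog pairs, X-linked members, and members with known roles. Some items under this rule are not reported here. Of other lists, up to 3 genes farthest from 0 per comparison were open to naming. Members that separate the J1 and TT2 sets, their copies, Rps15a, Rps6 on day 2 and the length bounds were chosen after their values were seen.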

Additional observations from a re-analysis of the deposited data

How the results depend on the processing

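No paired analysis was possible because each group has 1 RNA library, and no replicate could be left out. The 11 median differences kept within their interval under TMM without the members, with ribosomal proteins proper only and with no minimum, which adds Rpl32l alone. The filter of posterior SD under 5% could not move a median, since all 87 members passed it. With DESeq2 size factors 1 moved: day 2 to -0.56. With total count scaling 6 moved: G9a/GLP DKO against WT TT2 to 0.17 and against G9a CM to 0.16, G9a CM to -0.036, Dnmt3a/3b DKO against WT J1 to -0.31, day 2 to -0.24 and day 14 to -0.23. With deposited TPM, G9a CM turned from -0.14 to 0.11, and 8 moved: G9a/GLP DKO to 0.31 against WT TT2 and 0.19 against G9a CM, Dnmt3a/3b DKO to -0.078, Dnmt1/3a/3b TKO to -0.17 against WT J1 and -0.092 against Dnmt3a/3b DKO, day 2 to -0.14, day 14 to -0.15 and the inhibitor control to -0.48. These medians are not set against those of all genes, which moved as well. The cause was not tested. Of the 22 counts of called members, 15 moved by over 1.5 times with a 2-fold rule, 15 with TPM, 8 with total counts, 2 with DESeq2 size factors and 1 with a pseudocount of 0.1. The strain rule, whose alternatives were chosen after seeing the data, gave 3 lower members in place of 5 against all 7 TT2 strain libraries, 4 with a 2-fold gap and 5 by TPM, and 1 higher member each time. Adding named pseudogenes or dropping paralogs moved the WT J1 share of counts to 10.2% or 9.16%, and it stayed the highest of the 10 libraries. Counts of 1 to 12 for Rpl32l and 17 to 72 for Rpl3l limit what can be read from either.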
